A study of Danio rerio with 6 samples.

Results

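Tumor cells of zebrafish carrying the human IRF4 transgene and 1 mutant copy of p53 (lck-IRF4;p53+/-, 2 libraries) were compared with tumor cells of zebrafish carrying the transgene with p53 left normal (lck-IRF4, 2 libraries). These 4 libraries, chosen by their genotype labels, belong to a series of 6. The remaining 2 came from normal thymus of fish carrying only the fluorescent marker mCherry (lck-mCherry), and served as the shared reference at the gene level. In both tumor groups human IRF4 and mCherry were driven by the zebrafish lck promoter, which is active in T and B cells, and tumor cells were collected once lymphoma had appeared and sorted for mCherry. Per the study's methods the transgenic lines were made in a Singapore wild-type strain, whereas the p53 line came from another laboratory, so strain background and p53 genotype cannot be told apart. The labels do not give the age of the fish, the number of animals in a library, whether the control cells were sorted, or whether replicates came from separate animals, so p-values measure the spread between these samples.

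p53 is a transcription factor that is stabilized by DNA damage and other stress. It switches on genes for cell-cycle arrest, DNA repair and apoptosis, and also its own inhibitors of the Mdm family. The p53 variant in this line is described as unable to activate transcription, and a mutant protein can also impair the normal one because p53 acts as a tetramer. IRF4 is a transcription factor of lymphocytes that governs the maturation of B cells and the activation of T cells.

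The 6 libraries held between 10138258 and 12655373 counts each. Counts per transcript were compared across libraries first, since only these were deposited for single libraries. The median absolute log2 difference of a transcript was 0.46 between the lck-IRF4;p53+/- replicates and 0.41 between the lck-IRF4 replicates. Pairs of libraries from different tumor groups differed by 0.45 to 0.52. The spread within a tumor group was thus close to the distance between the groups. The 2 control libraries differed by 0.59, more than the replicates of either tumor group. Pairs of a control and a tumor library differed by 0.56 to 0.81. The lowest of these, between lck-mCherry replicate 2 and lck-IRF4 replicate 2, was below the difference of the control replicates. The T-cell genes lck and zap70 were abundant in every group. The approximate mean of lck was 18612 normalized counts in lck-IRF4;p53+/- tumors, 17136 in lck-IRF4 tumors and 12074 in control thymus.

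To ask which transcripts separate the p53-heterozygous from the p53-normal tumors, edgeR's quasi-likelihood model was fitted to all 6 libraries, and 14603 of 58867 transcripts had enough counts to enter it. At a Benjamini-Hochberg adjusted p under 0.05, 1 transcript was called, or 0.00685% of those tested. Without adjustment, 353 transcripts (2.42%) were higher and 625 (4.28%) were lower in lck-IRF4;p53+/- tumors at a p under 0.05. Both lck-IRF4;p53+/- libraries lay above both lck-IRF4 libraries for 2648 transcripts (18.1%) and below both for 2995 (20.5%). With 2 against 2 libraries, separation in either direction has a probability of 0.333 by random order alone. The Wald test of DESeq2 on the same libraries called 282 of 14036 transcripts, 78 higher (0.556%) and 204 lower (1.45%). The libraries of the tumor groups did not overlap for 280 of them. This follows largely from the call, which uses the same counts, and is no separate support. Of the 204 lower transcripts 43 had at most 3 counts in both lck-IRF4;p53+/- libraries, and of the 78 higher ones 11 had at most 3 in both lck-IRF4 libraries. The count by edgeR depended on single libraries. It was 0 without lck-mCherry replicate 1 and 0 without lck-mCherry replicate 2, with 1225 and 1229 transcripts at an unadjusted p under 0.05 by edgeR. Without lck-IRF4 replicate 1 or 2 it was 4 or 16, and without lck-IRF4;p53+/- replicate 1 it was 2. It was 511 when every transcript with a count in a tumor library was tested.

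The called transcript, ENSDART00000173291.2, had 3117 and 2043 counts in lck-IRF4;p53+/- tumors. No read was counted in either lck-IRF4 library, and the control thymus had 3 and 4. It rose at least 797-fold against lck-IRF4, taking a floor of 3 counts per library (edgeR adjusted p 0.0114). Both p53-heterozygous libraries stood far above all 4 others. A further transcript, ENSDART00000074811.5, had 166 and 291 counts in lck-IRF4;p53+/- and 0 in every lck-IRF4 and control library, at least 70.4-fold higher (edgeR adjusted p 0.217). In the opposite direction, ENSDART00000136732.2 had 0 and 0 counts in lck-IRF4;p53+/-, against 671 and 509 in lck-IRF4 and 1049 and 386 in control libraries, at least 208-fold lower (edgeR adjusted p 0.0762). ENSDART00000171350.2 had 0 and 0 counts in lck-IRF4;p53+/-, against 855 and 502 in lck-IRF4 and 0 and 0 in control libraries, at least 234-fold lower (edgeR adjusted p 0.0894). These 3 did not pass the threshold, although DESeq2 called each of them. Nothing in the files or the name tables used here pairs transcript identifiers with genes. The reads of a transcript may therefore appear again below under a gene, which would not be separate evidence. In all, 2 transcripts had at least 100 counts in both lck-IRF4;p53+/- libraries and at most 3 in both lck-IRF4 libraries, and 4 transcripts showed the reverse.

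**Figure D1:**
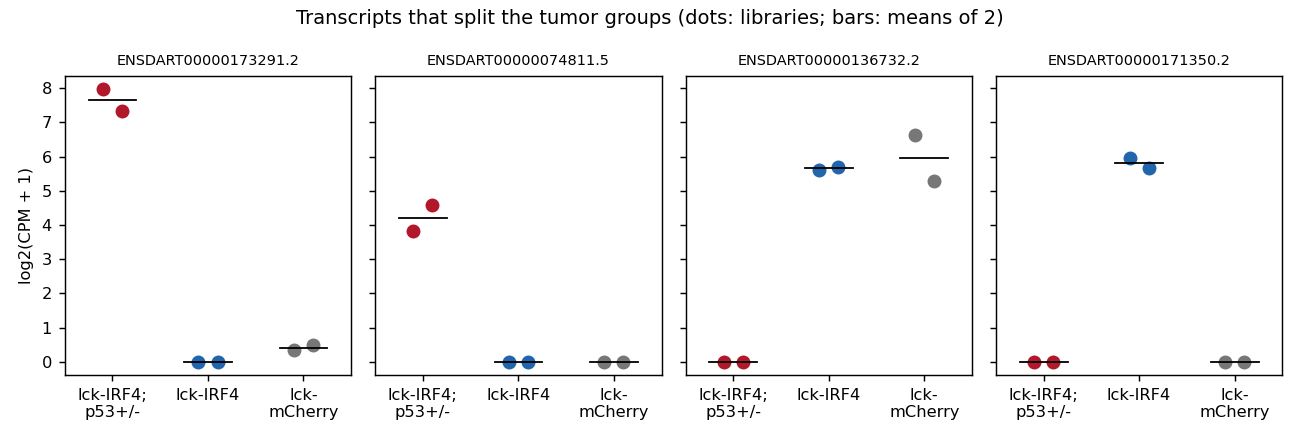
The level of 4 transcripts is plotted as log2(CPM + 1), where CPM is the count scaled to library size, with a dot for each library and a bar for the mean of 2 libraries. ENSDART00000173291.2 and ENSDART00000074811.5 are at 0 in both lck-IRF4 libraries, and the other two transcripts are at 0 in both lck-IRF4;p53+/- libraries.

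Genes were next compared through the deposited DESeq2 tables, each of which sets 1 tumor group against the same control libraries. For each gene the log2 fold change in lck-IRF4 was subtracted from that in lck-IRF4;p53+/-, which is called the difference here, and approximate group means were derived from each table. Because the tables hold no value for a single library and share their control, the difference has no test and is set beside the sum of its 2 standard errors (SE). Among 8292 of 31901 genes with a mean of at least 50 normalized counts in both tables, called measured from here on, the median difference was 0.02 and 51.7% of genes lay above 0. The difference was 1 or more for 390 genes (4.7%) and -1 or less for 508 (6.13%). It exceeded the sum of its SEs for 160 genes (1.93%) on the high side and 252 (3.04%) on the low side. Against the control, 266 of the 8292 genes (3.21%) were called higher and 445 (5.37%) lower in the lck-IRF4;p53+/- table at an adjusted p under 0.05. In the lck-IRF4 table, 258 (3.11%) were called higher and 459 (5.54%) lower.

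The regulators of p53 differed little. The inhibitor mdm4 had a difference of -0.25 and the phosphatase ppm1db, which dampens p53 signalling, one of -0.68. All 3 measured of 6 regulators listed lay below 0, but none reached -1 and none was called in either table. The main inhibitor of p53, mdm2, fell under the minimum mean, with 47.5 normalized counts in lck-IRF4;p53+/-, 33.3 in lck-IRF4 and 34.9 in control.

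Targets of p53 did not move as a block. Of 12 measured genes for cell-cycle arrest and stress feedback (15 listed), 0 had a difference of 1 or more and 1 had -1 or less, with a median of -0.17. The arrest gene cdkn1a, which encodes the cyclin-dependent kinase inhibitor p21, averaged 36.3 normalized counts in lck-IRF4;p53+/- and 27.3 in lck-IRF4, both below the 153 of the control. The log2 fold change of cdkn1a against control was -2.07 in lck-IRF4;p53+/- (SE 0.77, DESeq2 adjusted p 0.0703), which did not pass the threshold, and -2.49 in lck-IRF4 (SE 0.78, DESeq2 adjusted p 0.0204), which did. The stress sensor sesn1 was the lowest of this list at -1.37, within its summed SEs of 1.45. Of 5 measured repair and metabolism targets (9 listed), 0 reached 1 in either direction. Against the control, 2 of the 12 arrest targets were called lower in lck-IRF4;p53+/- and 5 in lck-IRF4, and 0 were called higher in either. Of all measured genes, 5.37% were called lower in lck-IRF4;p53+/- and 5.54% in lck-IRF4.

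Among 11 measured apoptosis targets of p53 (15 listed) the median difference was 0.05. At -1 or below lay 2 genes (18.2%, beside 6.13% of all genes), both beyond their summed SEs. The first was bbc3 (ENSDARG00000069282.6), which encodes Puma, a trigger of mitochondrial apoptosis. It averaged 31.4 normalized counts in lck-IRF4;p53+/- tumors, 179 in lck-IRF4 tumors and 267 in control thymus, 5.69-fold lower in the p53-heterozygous than in the p53-normal tumors. Against the control bbc3 fell by 3.09 on the log2 scale in lck-IRF4;p53+/- (SE 0.74, DESeq2 adjusted p 0.00103), and had a value of -0.58 in lck-IRF4 (SE 0.58, DESeq2 adjusted p 0.728). The second was stk17al, a death-associated kinase gene, with 2824 normalized counts in lck-IRF4;p53+/-, 5822 in lck-IRF4 and 39671 in control. It was called lower in both tables, and its difference of -1.04 stood beside summed SEs of 1.02. The pore-forming genes baxa (ENSDARG00000020623.8) and baxb had differences of 0.44 and 0.48, and pmaip1, which encodes Noxa, had -0.17. The death receptor gene fas had 0.23 and the apoptosome scaffold apaf1 had -0.12, both within their summed SEs. In the wider BCL2 family of 12 measured genes, bbc3 was the lowest and bmf2, at 1.78 with summed SEs of 3.22, the highest.

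Glycolysis was the list with the highest share of genes on the high side among those with at least 10 genes measured. Of 19 measured enzymes and transporters (40 found), 18 had a difference above 0, 8 were at 1 or more (42.1%, beside 4.7% of all genes) and 0 were at -1 or less, with a median of 0.88. The difference exceeded the summed SEs for 6 of them. The enzyme that turns pyruvate into lactate, ldha (ENSDARG00000101251.2), averaged 5488 normalized counts in lck-IRF4;p53+/-, 1458 in lck-IRF4 and 4547 in control, 3.77-fold higher in the p53-heterozygous tumors. In the lck-IRF4 table ldha fell by 1.64 (SE 0.47, DESeq2 adjusted p 0.00932), and in the lck-IRF4;p53+/- table it had 0.27 (SE 0.61, DESeq2 adjusted p 0.908). Phosphoglycerate kinase pgk1 averaged 8155 and 3290 normalized counts in lck-IRF4;p53+/- and lck-IRF4, 2.48-fold higher, against 2994 in control. Hexokinase hk1, the entry enzyme, averaged 1809 and 757, against 1486 in control. Aldolase aldoaa averaged 17580 and 7675, against 7151 in control, and phosphoglycerate mutase pgam1a averaged 4313 and 1844, against 5444. Thus ldha and pgam1a lay below control in the p53-normal tumors, whereas pgk1 and aldoaa lay above control in the p53-heterozygous tumors. None of the 19 was called higher than control in either table. Called lower were 1 in lck-IRF4;p53+/- and 3 in lck-IRF4, beside 5.37% and 5.54% of all measured genes.

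Genes of the response to low oxygen were examined outside glycolysis. The oxygen sensor egln3, a prolyl hydroxylase that is itself induced by low oxygen, averaged 844 normalized counts in lck-IRF4;p53+/-, 103 in lck-IRF4 and 219 in control. It rose against the control in lck-IRF4;p53+/- by 1.95 (SE 0.61, DESeq2 adjusted p 0.0225), and had -1.09 in lck-IRF4 (SE 0.68, DESeq2 adjusted p 0.433). Of 7 measured hypoxia genes (21 found), egln3 was the only one at 1 or more, with a median of -0.11. The minimum mean leaves out genes that were high in 1 tumor group and low in the other groups. Of 13 genes with a mean of at least 10 normalized counts in a tumor group, 7 were higher and 6 lower in lck-IRF4;p53+/-. A mean of at least 10 was reached by 12 genes of the list in lck-IRF4;p53+/- and by 9 in lck-IRF4. For a gene that reached it in only 1 tumor group, the direction was fixed by this filter. Members under the minimum mean, named here after their values were seen, included ankrd37, an ankyrin repeat gene, with 117 normalized counts in lck-IRF4;p53+/-, 7.52 in lck-IRF4 and 9.43 in control. The collagen prolyl hydroxylase p4ha1b averaged 71 in lck-IRF4;p53+/-, 7.98 in lck-IRF4 and 3.29 in control, and adma, which encodes adrenomedullin, averaged 68.9 in lck-IRF4;p53+/- and 4.44 in control, with a difference of 2.51 from lck-IRF4. These 3 rose against control in lck-IRF4;p53+/- (DESeq2 adjusted p 0.000899 for ankrd37, 0.00172 for p4ha1b and 0.00758 for adma), and in lck-IRF4 none was called (DESeq2 adjusted p between 0.786 and 0.967). The growth factor genes vegfaa and vegfab had differences of 2.32 and 1.91, within their summed SEs. The hypoxia-inducible factor epas1a went the other way, with 4.42 in lck-IRF4;p53+/-, 134 in lck-IRF4 and 1.59 in control. Of 36 measured nuclear genes of the respiratory chain, 31 lay above 0, beside 51.7% of all genes, with a median of 0.18. The subunit gene cox6b1 was the only one of them at 1 or more, with a difference of 2.07. Of 13 genes of the mitochondrial genome 12 lay above 0, with a median of 0.29, and 0 reached 1.

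**Figure D2:**
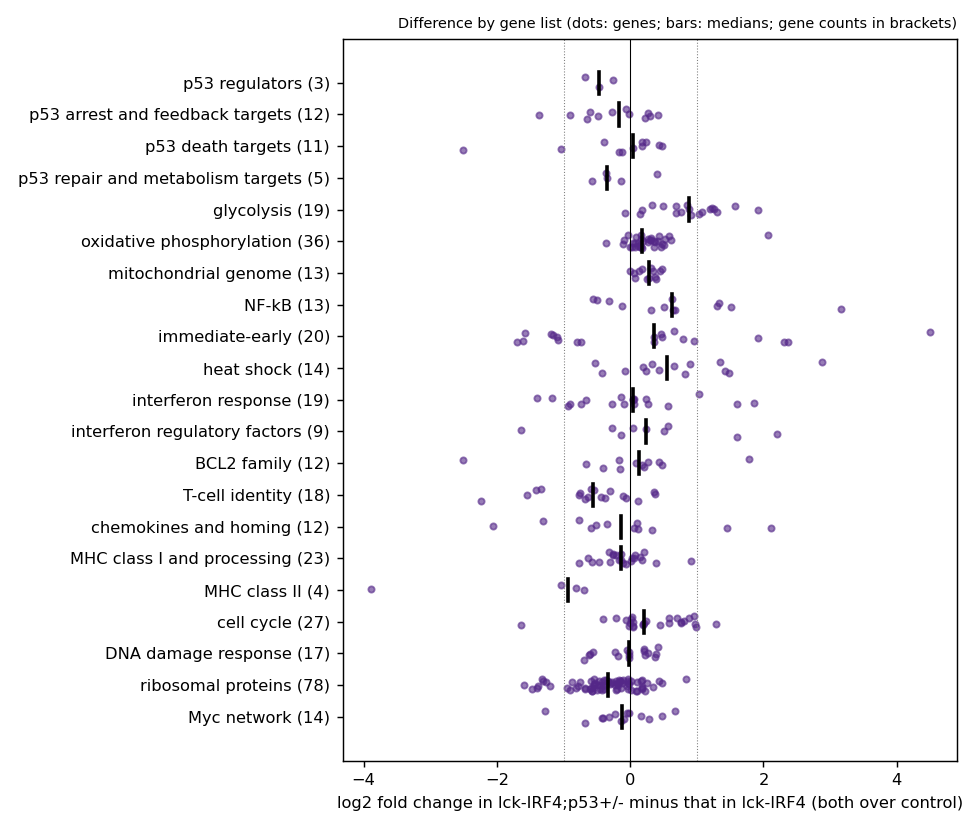
The difference between the log2 fold changes of the tumor groups (lck-IRF4;p53+/- minus lck-IRF4, both over control) is plotted for each gene of 21 lists, with a bar at each median and dotted lines at -1 and 1. Glycolysis lies to the right with a median of 0.88, and in the p53 target lists bbc3 (-2.51), sesn1 (-1.37) and stk17al (-1.04) lie beyond the line at -1.

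Several genes of the NF-kB pathway, which carries signals from antigen and cytokine receptors, had higher means in the p53-heterozygous tumors. Of 13 measured, 4 had a difference of 1 or more (rel, relb, tnfaip3 and nfkb2), or 30.8% beside 4.7% of all genes. The median was 0.63, and 0 were at -1 or less. The factor rel averaged 8081 normalized counts in lck-IRF4;p53+/-, 909 in lck-IRF4 and 41756 in control. In lck-IRF4 rel fell by 5.53 (SE 0.79, DESeq2 adjusted p 6.39e-10), and in lck-IRF4;p53+/- it had -2.37 (SE 1.02, DESeq2 adjusted p 0.154). Of the 13, rel alone had a difference beyond its summed SEs. Against control the median fold change of the list was -1.52 in lck-IRF4;p53+/- and -1.53 in lck-IRF4. Called lower were 1 of the 13 in lck-IRF4;p53+/- and 6 in lck-IRF4, beside 5.37% and 5.54% of all measured genes. The called gene in both tables was cyldb, a deubiquitinase that restrains the pathway.

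Immediate-early genes, which are induced within minutes by stimulation and also by handling of cells, were split. Of 20 measured, 4 had a difference of 1 or more (20%, beside 4.7% of all genes). Another 7 were at -1 or less (35%, beside 6.13%). On the low side, fosab averaged 5407 normalized counts in lck-IRF4;p53+/- and 17532 in lck-IRF4, against 19267 in control, and the phosphatase dusp1 averaged 3960 and 12044, against 13200 in control. The fold change of fosab against control was -1.83 in lck-IRF4;p53+/- (SE 0.61, DESeq2 adjusted p 0.0356) and -0.13 in lck-IRF4 (SE 0.55, DESeq2 adjusted p 0.962). On the high side, the AP-1 factor fosl2 averaged 2346 and 625, against 10872 in control, and the phosphatase dusp5 averaged 217 and 42.1, against 211. The largest difference of the list, 4.49 for fosaa, lay within summed SEs of 4.86. Of 14 heat shock genes, 4 were at 1 or more (28.6%, beside 4.7% of all genes) and 0 at -1 or less, with a median of 0.55. The inducible chaperone hsp90aa1.2 averaged 50727 normalized counts in lck-IRF4;p53+/-, 6956 in lck-IRF4 and 16723 in control, and was called in neither table. The part of sample handling in these values was not tested.

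The fish genes of the IRF family took opposite directions. The zebrafish counterparts of the transgene are irf4a and irf4b, and the human transgene itself was not analysed here. irf4b averaged 318 normalized counts in lck-IRF4;p53+/-, 69.3 in lck-IRF4 and 1206 in control, a difference of 2.21. irf4a averaged 86.4 in lck-IRF4;p53+/-, 270 in lck-IRF4 and 466 in control, a difference of -1.64. Against the control irf4a fell in lck-IRF4;p53+/- (-2.43, SE 0.79, DESeq2 adjusted p 0.0303) and irf4b fell in lck-IRF4 (-4.13, SE 0.79, DESeq2 adjusted p 9.99e-06). The interferon-induced factor irf7 was 3.03-fold higher in lck-IRF4;p53+/-, with 252 normalized counts against 83.7. Of 19 genes of the interferon response, 3 were at 1 or more (15.8%, beside 4.7% of all genes). At -1 or less were 2 (10.5%, beside 6.13%), and the median was 0.04.

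Most T-cell genes had lower means in the p53-heterozygous tumors. Of 18 measured (20 found), 15 lay below 0, beside 4001 of all 8292 measured genes, with a median of -0.57. At -1 or less were 4 (cd4-1, cd8a, cd247l and cd28), or 22.2% beside 6.13% of all genes, and 0 were at 1 or more. For cd4-1 and cd8a the difference exceeded the summed SEs. The coreceptor cd8a averaged 781 normalized counts in lck-IRF4;p53+/-, 2285 in lck-IRF4 and 7585 in control, 2.92-fold lower in the p53-heterozygous tumors. It fell against control in both tables. The coreceptor cd4-1 averaged 2.66 and 12.7, at least 4.22-fold lower, against 175 in control. The cytokine receptor gene il2rb averaged 32.8 in lck-IRF4;p53+/-, 285 in lck-IRF4 and 213 in control, 8.66-fold lower. It belongs to another list, of natural killer and cytotoxic cells, with 2 measured genes above 0 and 2 below. The inhibitor of E proteins id3 averaged 1414 and 4282, against 21954 in control, and fell in both tables. In these bulk samples fewer cells of a type and less RNA per cell cannot be told apart. The T-lineage factors gata3 and tcf7 had differences of -0.07 and 0.37.

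Segments of the T-cell receptor, which are joined anew in each T cell, had different levels in the tumor groups. The gamma segment trgv1 averaged 308 normalized counts in lck-IRF4;p53+/-, 1786 in lck-IRF4 and 35 in control, 5.78-fold lower in the p53-heterozygous tumors, and rose against control in both tables. The segment trgv5 averaged 739 in lck-IRF4;p53+/-, 469 in lck-IRF4 and 77 in control, with a difference of 0.66 inside summed SEs of 1.27. The segment trgv3 averaged 11.5, against 147 in lck-IRF4 and 14.3 in control. A list of 62 shared alpha and delta variable segments, written after values had been seen, summed to 63.2 normalized counts in lck-IRF4;p53+/-, 459 in lck-IRF4 and 2048 in control. Of these segments 58 were at 3 or less in lck-IRF4;p53+/- and 33 in lck-IRF4. The segment tradv17.0 averaged 0.443 in lck-IRF4;p53+/-, 51 in lck-IRF4 and 113 in control, at least 17-fold lower. The joining segment traj35 averaged 273, 755 and 1011 in the same order of groups. Segments of a family share sequence, so their single levels are uncertain.

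**Figure D3:**
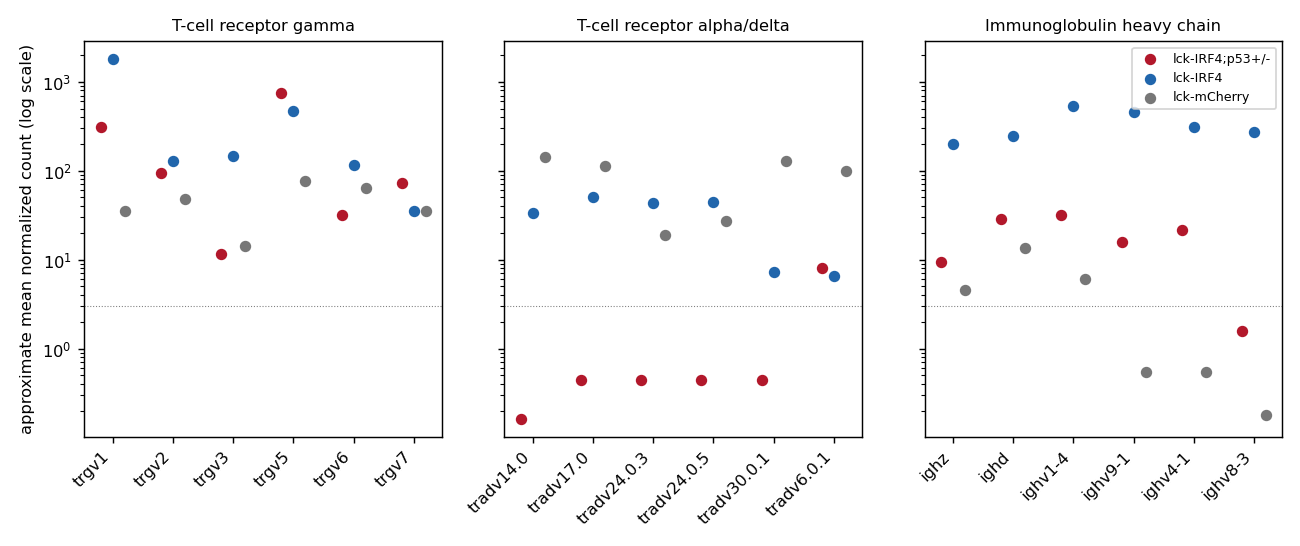
Approximate mean normalized counts (log scale) of selected T-cell receptor and immunoglobulin segments are plotted for lck-IRF4;p53+/-, lck-IRF4 and lck-mCherry, with a dotted line at 3. The lck-IRF4 dots lie above the lck-IRF4;p53+/- dots for trgv1 (1786 against 308) and for all 6 immunoglobulin genes, and the order is reversed for trgv5 and trgv7.

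Genes for antigen presentation by MHC class II were lower as well. All 4 measured of 6 lay below 0, beside 4001 of all 8292 measured genes, with a median of -0.93. The class II gene mhc2dab averaged 180 normalized counts in lck-IRF4;p53+/-, 2688 in lck-IRF4 and 5533 in control, and fell in lck-IRF4;p53+/- by 4.94 against control (SE 0.65, DESeq2 adjusted p 9.92e-12), with -1.05 in lck-IRF4 (SE 1.70, DESeq2 adjusted p 0.869). Of 23 genes for class I and peptide processing, 0 reached 1 in either direction. Receptors of the list of chemokines and homing were split, with s1pr4 at 2.11 and the lymph node homing receptor ccr7 at 1.45, and the chemokine receptor cxcr4a at -2.07. cxcr4a averaged 46.9, 196 and 896 normalized counts in lck-IRF4;p53+/-, lck-IRF4 and control, and fell in both tables.

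Few proliferation and repair genes had a difference of 1 or more in size between the tumor groups. Of 27 cell-cycle genes, the mitotic kinase aurka (1.29) was the only one at 1 or more and the G1 kinase cdk6 (-1.64) the only one at -1 or less. Their median was 0.21, and 22 of the 27 lay above 0, beside 51.7% of all genes. Of 17 DNA damage genes 0 reached 1 in either direction, and of 14 Myc network genes only mxd1 did, at -1.28. Ribosomal protein genes had a median of -0.34, with 62 of 78 below 0, beside 4001 of all 8292 measured genes. Of the 78, 8 were at -1 or less (10.3%, beside 6.13% of all genes). Of 10 genes singled out by the study as activated in tumors, 4 were called higher in lck-IRF4;p53+/- and 5 in lck-IRF4, beside 3.21% and 3.11% of all measured genes. They included gata3 and the chromatin-bound factor psip1a, which averaged 12340 normalized counts in lck-IRF4;p53+/-, 8813 in lck-IRF4 and 576 in control. Of the 10, midn alone had a difference of at least 1 in size, at -1.63, with 10074 normalized counts in lck-IRF4;p53+/- and 31243 in lck-IRF4.

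Some genes were nearly absent from 1 tumor group. In 19 genes the mean was at least 50 normalized counts in lck-IRF4;p53+/- and at most 3 in lck-IRF4, and 54 genes had the reverse. In control thymus 12 of the 19 and 41 of the 54 were also at 3 or less. Of the 19, 12 were called against control in the lck-IRF4;p53+/- table, and of the 54, 32 were called in the lck-IRF4 table. These genes were chosen by their levels, so the counts describe them only. The lectin gene jac2 (ENSDARG00000056166.6) averaged 2189 in lck-IRF4;p53+/-, 0.17 in lck-IRF4 and 3.85 in control, at least 730-fold higher. It rose against control in lck-IRF4;p53+/- by 9.15 (SE 0.81, DESeq2 adjusted p 1.98e-25), and its paralogue jac3, with 123 normalized counts against 1.46, was at least 40.8-fold higher. The cadherin gene cdh29 (ENSDARG00000100131.2) averaged 0, 805 and 0 in lck-IRF4;p53+/-, lck-IRF4 and control, at least 268-fold lower in the p53-heterozygous tumors. CR933791.1 averaged 0.163 in lck-IRF4;p53+/-, 539 in lck-IRF4 and 720 in control, at least 180-fold lower, whereas CR933791.2, whose name carries the same clone, averaged 202, 0 and 0.202. BX324216.1 averaged 0.887, 436 and 904. Among genes with a mean of at least 50 in both tables, the metalloproteinase mmp25b (1170, 77.3 and 403), the plasminogen activator plaua (326, 24.1 and 121) and the chemokine ccl34a.4 (1317, 117 and 49.9) were among the 12 highest. Among the 12 lowest were BX901920.1 (122, 3854 and 549), the integrin itga11a (5.32, 384 and 95.1) and clec16a (795, 41142 and 1415). Each triple gives normalized counts in lck-IRF4;p53+/-, lck-IRF4 and control. The fold change of clec16a in the lck-IRF4 table had an SE of 2.02.

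**Figure D4:**
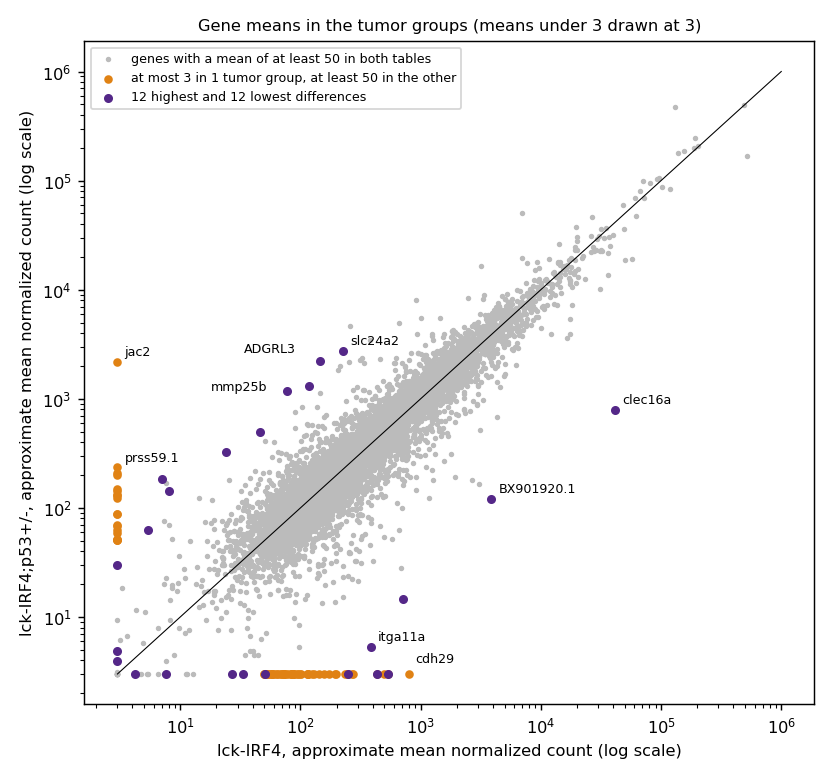
Approximate mean normalized counts are plotted for lck-IRF4;p53+/- (vertical) against lck-IRF4 (horizontal), both on log scales, with a line of equality and means under 3 drawn at 3. Most genes follow the line, jac2 stands at the left edge with 2189 in lck-IRF4;p53+/-, and cdh29 at the lower edge with 805 in lck-IRF4.

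Markers of other cell types also differed between the tumor groups, although both were sorted on mCherry. The 16 macrophage markers summed to 5696 normalized counts in lck-IRF4;p53+/-, 1615 in lck-IRF4 and 1045 in control, with 9 of the 11 detected markers (a mean of at least 10 in a tumor group) higher in lck-IRF4;p53+/-. A mean of at least 10 was reached by 11 of the markers in lck-IRF4;p53+/- and by 10 in lck-IRF4. The markers grn1 and marco made up most of the sum in lck-IRF4;p53+/-. The scavenger receptor marco averaged 2176, 251 and 168 in that order of groups, with a fold change against control of 3.69 in lck-IRF4;p53+/- (SE 0.73, DESeq2 adjusted p 2.67e-05) and 0.58 in lck-IRF4 (SE 0.67, DESeq2 adjusted p 0.778). The macrophage pore protein mpeg1.2 averaged 233, 245 and 81.6. Complement c1qb averaged 558, 139 and 48.3. The marker mfap4 was at 3 or less in all groups, as were 4 of the 16 markers in lck-IRF4;p53+/- and 3 in lck-IRF4. Stromal markers summed to 1618, 387 and 160. All 10 detected were higher in lck-IRF4;p53+/-, and 7 of them had a mean of at least 10 in lck-IRF4. Digestive enzymes of the exocrine pancreas, a list written after values had been seen, summed to 1498, 80.1 and 52.4. Of these 14 genes, 13 had a mean of at least 10 in lck-IRF4;p53+/- and 3 in lck-IRF4. Several had large errors, such as prss59.1 with an SE of 2.73.

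In the other direction, 42 immunoglobulin heavy-chain genes, also listed after values had been seen, summed to 360 normalized counts in lck-IRF4;p53+/-, 4845 in lck-IRF4 and 63.8 in control. A mean of at least 10 was reached by 9 of the 42 in lck-IRF4;p53+/- and by 33 in lck-IRF4. The constant gene ighz averaged 9.34, 197 and 4.5 and the B-cell receptor chain cd79a averaged 44.3, 191 and 73.2. B-cell markers as a list summed to 974, 2518 and 837, and the B-lineage factor pax5 was at 0.438, 11.8 and 0.535. Intestinal enterocyte genes, listed in the same way, summed to 72.5, 4618 and 43.8. Of these 17 genes, 3 had a mean of at least 10 in lck-IRF4;p53+/- and 13 in lck-IRF4. Errors varied among genes nearly absent from lck-IRF4;p53+/-. Against control in lck-IRF4, slc15a1b had an SE of 3.91 and mttp 3.61, whereas cdx1b had 1.31. With errors as large as the first, a mean may rest on a single library. The gene fabp2, which encodes a fatty acid carrier of enterocytes, averaged 6.65, 763 and 1.13. Lists written after values had been seen describe their members only. Photoreceptor genes summed to 3144, 6058 and 27, and erythrocyte genes to 6693, 9966 and 2990. Granulocyte genes summed to 3706, 2293 and 698, and epithelial genes to 4774, 3482 and 763. The part of these cell types in the differences above was not tested.

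**Figure D5:**
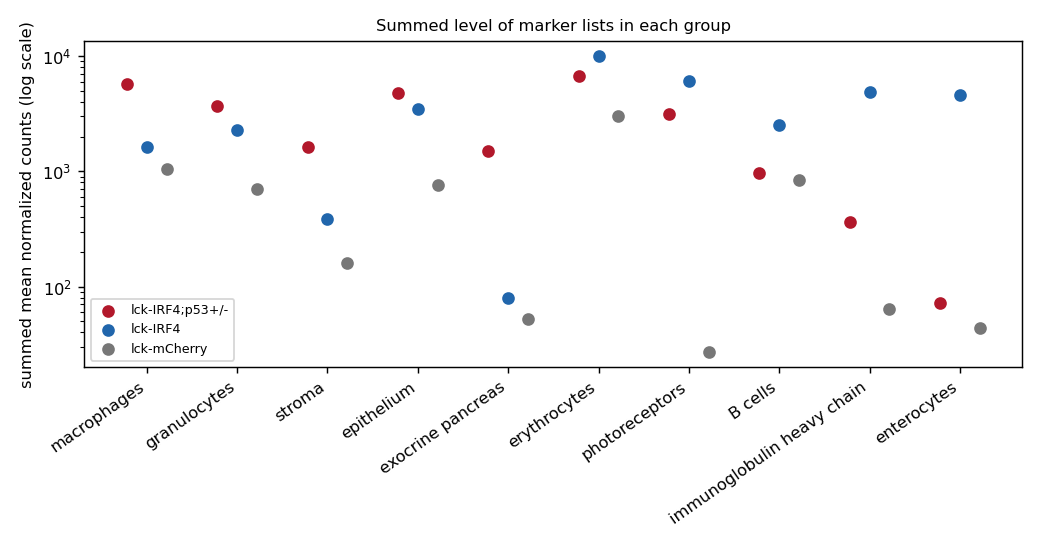
Summed approximate mean normalized counts (log scale) are plotted for 10 marker lists in lck-IRF4;p53+/-, lck-IRF4 and lck-mCherry. Macrophage (5696 against 1615), stromal and pancreatic sums are higher in lck-IRF4;p53+/- than in lck-IRF4, and immunoglobulin (360 against 4845) and enterocyte sums are lower.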

How the data were processed

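Raw counts per Ensembl transcript were deposited for each library. The submitters' processing notes name STAR 2.5.2a, featureCounts 1.6.1, DESeq2 1.12.4 and the GRCz11 genome, without role or order. The authors also deposited a DESeq2 table for each tumor group against control: mean of normalized counts (signal), log2 fold change with its standard error, p-value and adjusted p-value for 31901 genes. The study's methods describe featureCounts with Ensembl gene annotation for its drug-treated samples. How reads were counted per gene for these 6 libraries is not stated there. The authors' comparison columns were the only values per gene used here. Group means were derived from the mean and the fold change, taking groups as equal in size. The control means of both tables then differed by a constant factor (SD 0.00407 on the log2 scale), so lck-IRF4 means were rescaled by it. Of the gene identifiers, 29178 matched a table of current names.

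Transcripts were tested with edgeR 4.0.16 in R 4.3.3 (TMM scaling, filterByExpr, quasi-likelihood test over 6 libraries), and with DESeq2 1.42.0 as an alternative. The procedure was tested on simulated data, and the outcome is not reported here. Other alternatives were scaling, filters, thresholds, left-out libraries, a replicate block and, at the gene level, the minimum mean, centring, precision and a floor, the last added after seeing the data. The biological coefficient of variation was 0.559. An exact permutation test of 2 against 2 libraries cannot go below 0.333 (two-sided), so none was made. Floors of 3 counts cover counting error only.

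Named transcripts were all called ones and those with the smallest p without overlap, of which 2 per direction are printed. Named genes were the 12 highest and 12 lowest differences beyond their summed standard errors, genes absent from 1 tumor group, and list members. The comparison, lists and rules were chosen with earlier results of these data known. 1 listed regulator is not reported here.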

Additional observations from a re-analysis of the deposited data

Results flagged for a closer look

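The transcript ENSDART00000173291.2 differed between the tumor groups by the test of the difference itself. Its log2 fold change was 14.23 (edgeR adjusted p 0.0114), with 3117 and 2043 counts in the lck-IRF4;p53+/- libraries and 0 in both lck-IRF4 libraries, so the fitted value depends on the prior count and is no bound. The call was lost without either lck-mCherry library.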

How the results depend on the processing

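The number of called transcripts was 1 with RLE scaling and with at least 1 CPM in 2 libraries. It was 282 with DESeq2 on 6 libraries, 363 with DESeq2 on the 4 tumor libraries, 0 with edgeR on the 4 tumor libraries (1105 at an unadjusted p under 0.05), 511 when every transcript with at least 1 tumor count was tested, and 4 at an adjusted p under 0.1. Leaving out 1 library gave between 0 and 16. With the replicate number as a block the count stayed at 1. Same-numbered libraries deviated together with correlations of 0.0115 (tumor groups), 0.269 (lck-IRF4;p53+/- and control) and 0.0641 (lck-IRF4 and control). The labels give same-numbered samples only the number in common, and a shared batch was not tested. The 4 printed transcripts kept their direction in every alternative, which their 0 counts in both libraries of 1 tumor group fixed in advance. The count of genes with a difference of at least 1 in size was 898, or 2000 with a minimum mean of 10, 604 with 100, 900 after centring, 759 with standard errors under 1 and 879 with the floor. Of the list medians recomputed under the alternatives, 196 moved by less than the median standard error of the list and 4 by more. Those of the macrophage list were 1.97 and 0.17 with a minimum mean of 10 and 100, against 1.09. Those of the alpha and delta variable segments were -2.68 with a minimum mean of 10 and -2.38 with the floor, against -5.44. The yardstick is a standard error of single genes, so a median could change sign and stay among the 196. That of the immediate-early list was 0.36, and -0.19 with standard errors under 1. Centring shifted every list by the same small amount and could not move any beyond the yardstick. No single library can be left out at the gene level, so a difference there may rest on 1 library.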

Other observations

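Gene groups with few measured members or small differences were also listed. Of 11 measured genes of cholesterol synthesis and uptake, 2 had a difference of 1 or more and 0 had -1 or less, and neither exceeded its summed SEs. The lipoprotein receptor gene ldlra averaged 332 normalized counts in lck-IRF4;p53+/-, 103 in lck-IRF4 and 326 in control. Of 14 measured histone and chromatin protein genes, h3f3c alone reached -1, with 73.1 in lck-IRF4;p53+/-, 159 in lck-IRF4 and 187 in control. The receptor notch1a, which drives early T-cell development, averaged 111 in lck-IRF4;p53+/-, 319 in lck-IRF4 and 137 in control, a difference of -1.51 within summed SEs of 1.61. Of 18 genes of natural killer and cytotoxic cells with a mean of at least 10 normalized counts in a tumor group, 15 were lower and 3 higher in lck-IRF4;p53+/-, and the list summed to 672 in lck-IRF4;p53+/-, 1093 in lck-IRF4 and 653 in control. A mean of at least 10 was reached by 7 genes of the list in lck-IRF4;p53+/- and by 17 in lck-IRF4. Only 4 genes of the list reached the minimum mean of 50, among them il2rb at -3.11 and the protease gzmk at 1.29. The tumor necrosis factor receptor gene cd27, which missed the minimum mean in 1 table, averaged 48.7, 262 and 50.5 in the same order of groups.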
